A study of Rattus norvegicus with 10 samples.

Results

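The Hox genes were examined in RNA sequencing of dorsal root ganglia, which hold the cell bodies of the body's sensory neurons. A gene was taken if its name was Hox followed by a cluster letter a, b, c or d and a number from 1 to 13, which gave 39 of the 30560 genes in the table. All 10 libraries were labelled as L6, the last lumbar level of the rat, and came from Sprague Dawley rats aged 7 to 8 weeks. Every animal carried an intrathecal lumbar catheter, was dosed through it 5 days after surgery and received meloxicam, an anti-inflammatory analgesic. In all, 5 libraries came from rats given phosphate-buffered saline (PBS), and 5 from rats that received SCN9A_2544 at 0.75 mg. SCN9A_2544 is a divalent small interfering RNA (siRNA) against Scn9a, the gene of the sodium channel Nav1.7. All samples have a timepoint of 14 days, whose starting point the labels leave unnamed. Libraries are named by group and replicate number, so that PBS 3 is replicate 3 of the PBS group. The labels do not say how many ganglia or which side went into a sample, and a group given a non-targeting siRNA was not analysed here.

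Hox genes encode homeodomain transcription factors that lie in 4 clusters, A to D, in which genes with the same number are paralogs. Their order along each cluster follows the order of their expression along the body: low numbers act from the hindbrain backwards, middle numbers in the neck and trunk, and the highest numbers in the lumbosacral, tail and limb regions. Neurons and connective tissue of the trunk keep much of this positional pattern after development, so the set of Hox genes in a ganglion carries a record of its level along the body axis. Hox proteins bind DNA together with cofactors of the Pbx and Meis families.

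The 250 bases before the start of Hoxd11, Hoxd10 and Hoxd9 are shown because these neighbours in cluster D span the caudal limit described below, with Hoxd9 detected (1 CPM or more, a unit explained below) in every library, Hoxd10 in 7 of 10 and Hoxd11 in 1. The sequences are from RefSeq on build GRCr8, all on the plus strand, at chr3:79992144-79992393, chr3:80001697-80001946 and chr3:80007756-80008005, and capitals mark a match to a motif searched.
Hoxd11: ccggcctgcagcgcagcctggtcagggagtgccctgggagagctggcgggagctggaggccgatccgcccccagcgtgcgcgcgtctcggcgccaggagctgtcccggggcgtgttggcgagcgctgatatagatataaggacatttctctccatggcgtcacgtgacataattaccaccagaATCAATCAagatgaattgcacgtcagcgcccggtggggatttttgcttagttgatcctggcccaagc
Hoxd10: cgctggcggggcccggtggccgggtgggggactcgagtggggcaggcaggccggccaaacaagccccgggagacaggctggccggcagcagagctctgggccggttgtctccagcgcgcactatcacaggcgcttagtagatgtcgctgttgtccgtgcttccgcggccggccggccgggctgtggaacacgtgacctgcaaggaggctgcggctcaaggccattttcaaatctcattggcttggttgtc
Hoxd9: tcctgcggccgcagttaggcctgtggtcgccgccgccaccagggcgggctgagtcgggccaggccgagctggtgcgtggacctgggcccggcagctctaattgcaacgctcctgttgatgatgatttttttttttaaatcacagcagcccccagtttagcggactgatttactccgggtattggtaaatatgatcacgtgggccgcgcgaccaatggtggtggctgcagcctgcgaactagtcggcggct
Promoters for 20 of the 39 genes were matched by symbol, with 21 windows because Hoxa10 had a pair of starts. The motifs searched on both strands were TTTATG, the core of Cdx sites, TGATNNAT, a Pbx-Hox composite site, and TATAAA, the TATA box. TTTATG was in 2 of the 21 Hox windows against 11.4% of all 33469 windows of this length, TGATNNAT in 3 against 7.96%, and TATAAA in 4 against 12.9%. The capitals in the Hoxd11 window are a TGATNNAT match on the minus strand, and the Hoxd10 and Hoxd9 windows held none of the motifs, so no matches overlapped in the windows shown. A match is only a run of letters here, and the windows of Hoxc10 and Hoxc11 are not shown.

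Levels are given as CPM, the count of a gene per 1e+06 counts of its library, scaled between libraries, and they compare libraries for 1 gene but not 1 gene with another, since they were not divided by transcript length. Library totals ran from 11832376 to 15420006 estimated counts, so 1 CPM stood for 11.7 to 15.9 counts. The limit that a count of 0 allows, taken as 3 counts, was 0.189 to 0.256 CPM per library and covers counting error only. Scn9a, the targeted gene, lay at 132 to 257 CPM in the PBS libraries and 44.6 to 103 CPM in the treated ones, without overlap (log2 difference -1.05, two-sided exact permutation p = 0.00794, the smallest p this design allows). In the edgeR fit over all genes its log2 fold change was -1.03 with an adjusted p of 0.964, so that fit did not call the targeted gene either. All 12 sensory neuron identity genes and all 20 pan-neuronal genes were measured well enough to test. Of the 10 genes of the spinal cord neuron list, Chat and Mnx1 had at most 1 count in any library and Pax2 had 0, while Lmx1b was at 1.29 to 2.86 CPM, Slc5a7 at 1.57 to 26.1 CPM, and Slc6a5 and Slc32a1 reached 15 and 13 counts. Libraries differed in the level of neuronal genes: the pan-neuronal mean, the average log2 CPM of those 20 genes, ran from 8.37 to 9.58 in PBS and from 8.16 to 9.54 in treated libraries, with PBS 3, PBS 5 and SCN9A_2544 3 lowest.

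The ganglia carried transcripts of nearly the whole Hox series from paralog 2 to paralog 10, and almost none of paralogs 12 and 13. Of the 39 genes, 24 were at 1 CPM or more in every library, 7 in some libraries and 8 in none. The 24 were spread over the clusters, with 6 of 11 genes in A, 7 of 10 in B, 6 of 9 in C and 5 of 9 in D. Neither of the 2 genes of paralog 12 and none of the 4 of paralog 13 reached 1 CPM in any library, and none of the 3 of paralog 11 reached it in all. The rostral limit, the lowest number at 1 CPM, was the same in all 10 libraries in clusters B, C and D: Hoxb2 in B, Hoxc4 in C and Hoxd1 in D. Hoxc4 and Hoxd1 are the lowest-numbered genes of their clusters, so the limit there is the end of the cluster and could not lie further rostral. In cluster B, Hoxb1 had 0 counts in every library. That of cluster A is not given here.

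The caudal limit moved between libraries. In cluster A the highest number at 1 CPM was 10 in every library but SCN9A_2544 3, where Hoxa11 reached it. In cluster B it was 9 in every library but PBS 3, where it was 8. In cluster C it was 11 in PBS 1, PBS 2, PBS 3, SCN9A_2544 3 and SCN9A_2544 5, and 10 in the other libraries. In cluster D it was 11 in PBS 3, 9 in PBS 4, SCN9A_2544 1 and SCN9A_2544 4, and 10 in the rest. In cluster C, libraries of both groups were thus found at either limit. In cluster D both groups were found at 9 and at 10, but only PBS 3 at 11 at this threshold. These limits depend on the threshold. At 0.5 CPM cluster A reached 11 in PBS 1, PBS 2 and SCN9A_2544 1, 2, 3 and 5, and at 2 CPM in none. Cluster B was at 9 in every library at 0.5 CPM, and at 7 to 9 at 2 CPM. Cluster D reached 11 in PBS 1, PBS 3 and SCN9A_2544 5 at 0.5 CPM, so in libraries of both groups. At 2 CPM cluster C reached 11 only in PBS 3 and SCN9A_2544 5, and cluster D reached 11 in none.

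**Figure D1:**
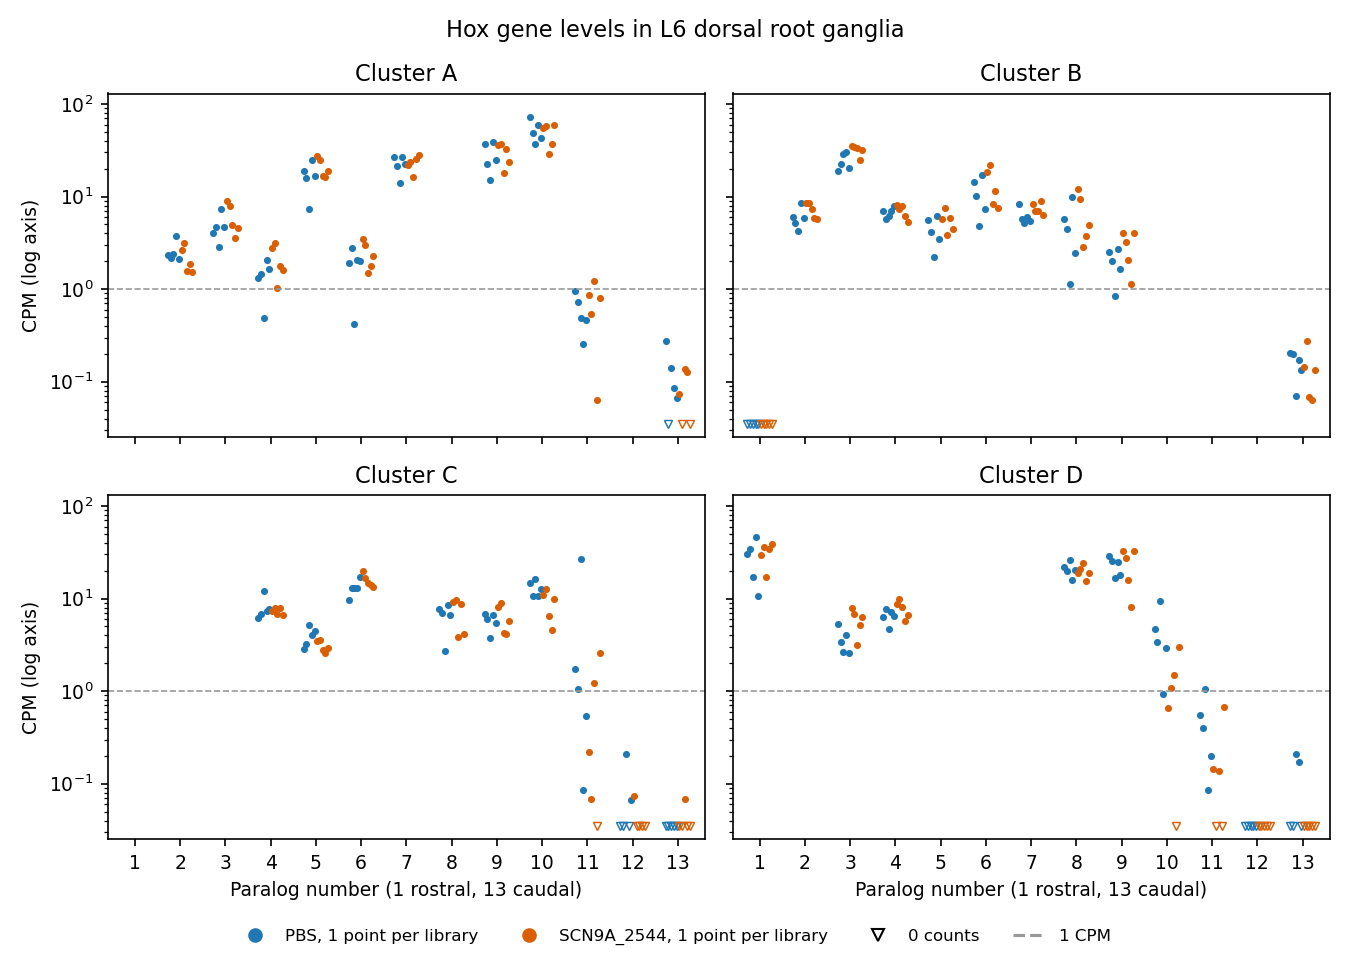
Hox gene levels in CPM on a log axis against paralog number, in 1 panel per cluster, for 38 of the 39 genes, with 1 point per library (blue PBS, orange SCN9A_2544), open triangles for libraries with 0 counts and a dashed line at 1 CPM. Paralogs 12 and 13 lie under the line in every library, while Hoxc11 runs from 0 counts to 26.5 CPM.

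At the rostral end, Hoxb1 and Hoxd1 differed. Hoxb1, which patterns the hindbrain, had 0 counts in all 10 libraries. Hoxd1, which shapes the circuits of pain-sensing neurons in mice, was at 30.4, 34.2, 16.9, 45.9 and 10.6 CPM in PBS 1 to 5 and at 29.8, 35.7, 17.0, 34.7 and 38.7 CPM in SCN9A_2544 1 to 5. It was lowest in PBS 5, PBS 3 and SCN9A_2544 3, the libraries of lowest pan-neuronal mean, and the groups overlapped. Hoxd1 had the highest mean CPM of cluster D.

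The paralogs 2 to 4, known for hindbrain and neck patterning, were present in all clusters that hold them. Hoxa2 ran from 1.55 to 3.76 CPM, Hoxb2 from 4.29 to 8.60, Hoxa3 from 2.88 to 9.04 and Hoxd3 from 2.60 to 7.95. Hoxb3, highest by mean CPM in cluster B, was at 19.0, 22.5, 28.8, 30.1 and 20.4 CPM in PBS 1 to 5 and at 35.6, 34.7, 33.3, 24.6 and 32.2 CPM in SCN9A_2544 1 to 5. All but 1 of the treated libraries were above every PBS library, and SCN9A_2544 4 lay within the PBS range. Hoxb4 (5.32 to 8.09 CPM), Hoxc4 (6.11 to 11.9 CPM) and Hoxd4 (4.71 to 9.79 CPM) varied little, whereas Hoxa4 ran from 0.492 CPM in PBS 3 to 3.13 CPM in SCN9A_2544 2. Hoxb4 had the narrowest range of the 24 genes detected throughout, 1.52-fold from lowest to highest library.

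Paralogs 5 to 8, which act in the neck and trunk, were all detected in at least 9 libraries. Hoxa5 ran from 7.38 to 27.4 CPM, Hoxb5 from 2.25 to 7.62, Hoxa7 from 14.1 to 27.8 and Hoxb7 from 5.20 to 9.07. Hoxc6, highest by mean CPM in cluster C, was at 9.75, 12.9, 13.1, 12.98 and 17.0 CPM in PBS 1 to 5 and at 19.8, 16.8, 14.9, 14.0 and 13.3 CPM in SCN9A_2544 1 to 5, with overlapping groups. Hoxc5 ran from 2.58 to 5.13 CPM. The genes of this block with the widest spread were lowest in PBS 3: Hoxa6 was at 0.4215 CPM there against 1.50 to 3.50 elsewhere, and Hoxb6 at 4.78 against 7.34 to 22.1. Hoxb8, which marks much of the trunk nervous system from the neck backwards, was at 5.70, 4.46, 1.12, 9.82 and 2.47 CPM in PBS 1 to 5 and at 12.1, 9.45, 2.86, 3.71 and 4.98 CPM in SCN9A_2544 1 to 5. Its 10.8-fold range was the widest among the 24 genes. Hoxc8 was likewise lowest in PBS 3 (2.74 CPM, against 3.81 to 9.725 in the others), while Hoxd8, in the same paralog group, stayed between 15.3 and 26.0 CPM and was highest in PBS 3.

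Reads of neighbouring Hox genes may not be fully separated. In RefSeq on GRCr8, 12 of the 39 genes overlap another gene and 7 overlap another Hox gene: the span of Hoxa3 covers Hoxa4, Hoxa5 and Hoxa6, and that of Hoxc6 overlaps Hoxc4 and Hoxc5. Hoxc11 overlaps the long non-coding RNA LOC134479790. The strand setting of the counting is not given in the sources used here, so reads of antisense partners cannot be told apart from those of the Hox genes. Only 3 of the 390 Hox values were not whole numbers, for Hoxd8 in PBS 2 and for Hoxa6 and Hoxa7 in SCN9A_2544 4.

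The paralog 9 genes, which act from the lower trunk backwards, were all present. Hoxa9 was at 37.4, 22.6, 15.25, 39.3 and 24.6 CPM in PBS 1 to 5 and at 36.2, 36.8, 18.0, 32.4 and 23.4 CPM in SCN9A_2544 1 to 5. Hoxb9 was at 2.54, 2.00, 0.843, 2.73 and 1.67 CPM in the PBS libraries and at 4.08, 3.26, 2.04, 1.13 and 4.04 CPM in the treated ones. Both genes were lowest in PBS 3, and the groups overlapped. Hoxc9, which sets the thoracic pattern of spinal motor neurons, was at 6.87, 5.99, 3.72, 6.66 and 5.41 CPM in PBS and at 8.02, 9.05, 4.29, 4.16 and 5.72 CPM in treated libraries. Hoxd9 was at 28.8, 25.3, 16.6, 24.9 and 18.0 CPM in PBS and at 32.4, 27.1, 16.0, 8.12 and 32.8 CPM in treated libraries. Hoxd9 was lowest in SCN9A_2544 4, at 8.12 CPM against 16.0 CPM or more in the other 9, whereas its paralogs were lowest in PBS 3. Hoxb9 and Hoxc9 were also low in SCN9A_2544 4, with only PBS 3 below it, while Hoxa9 was at 32.4 CPM there.

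The paralog 10 genes, which give the lumbar spinal cord and hindlimb level its identity, did not vary together. Hoxa10, highest by mean CPM in cluster A, was at 73.3, 48.5, 36.9, 58.8 and 43.5 CPM in PBS 1 to 5 and at 55.2, 57.5, 29.0, 36.9 and 59.3 CPM in SCN9A_2544 1 to 5. Hoxc10 was at 14.6, 10.8, 16.4, 10.8 and 12.7 CPM in PBS and at 11.01, 12.8, 6.47, 4.53 and 9.83 CPM in treated libraries. Hoxa10 was lowest in SCN9A_2544 3 and PBS 3, whereas Hoxc10 was highest in PBS 3 and lowest in SCN9A_2544 4. Hoxd10 was at 4.67, 3.39, 9.41, 0.940 and 2.94 CPM in PBS and at 0.656, 1.09, 1.50, 0 and 3.03 CPM in treated libraries, from 134 counts in PBS 3 to 0 in SCN9A_2544 4. The level in PBS 3 was 2.02-fold that of the next library and at least 49.8-fold higher than the 3-count limit in SCN9A_2544 4.

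The paralog 11 genes, which act in the lumbosacral region, hindlimb and kidney, were at the edge of detection in most libraries, apart from Hoxc11 in PBS 3. Hoxc11 was at 1.72, 1.06, 26.5, 0.0854 and 0.534 CPM in PBS 1 to 5 and at 0.219, 0.0680, 1.23, 0 and 2.56 CPM in SCN9A_2544 1 to 5. It had 377 counts in PBS 3, at most 38 in any other library and 0 in SCN9A_2544 4. The level in PBS 3 was 10.4-fold that of the next library, 49.6-fold the median of the other 9 and at least 140-fold higher than the limit in SCN9A_2544 4. The gap between the highest library and the next, 3.30 in log2 CPM, was the largest of all 15186 tested genes, ahead of Cxcl14 and Csrp2, which stood out in SCN9A_2544 3 by 3.20 and 3.19. Hoxd11 was at 0.549, 0.399, 1.05, 0.0854 and 0.200 CPM in PBS and at 0.146, 0, 0.136, 0 and 0.673 CPM in treated libraries, again highest in PBS 3, with 15 counts. Hoxa11 did not share this order: it was at 0.961, 0.732, 0.492, 0.256 and 0.467 CPM in PBS and at 0.875, 0.544, 1.23, 0.0630 and 0.808 CPM in treated libraries. It was lowest in SCN9A_2544 4, as Hoxc11 was, but highest in SCN9A_2544 3.

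**Figure D2:**
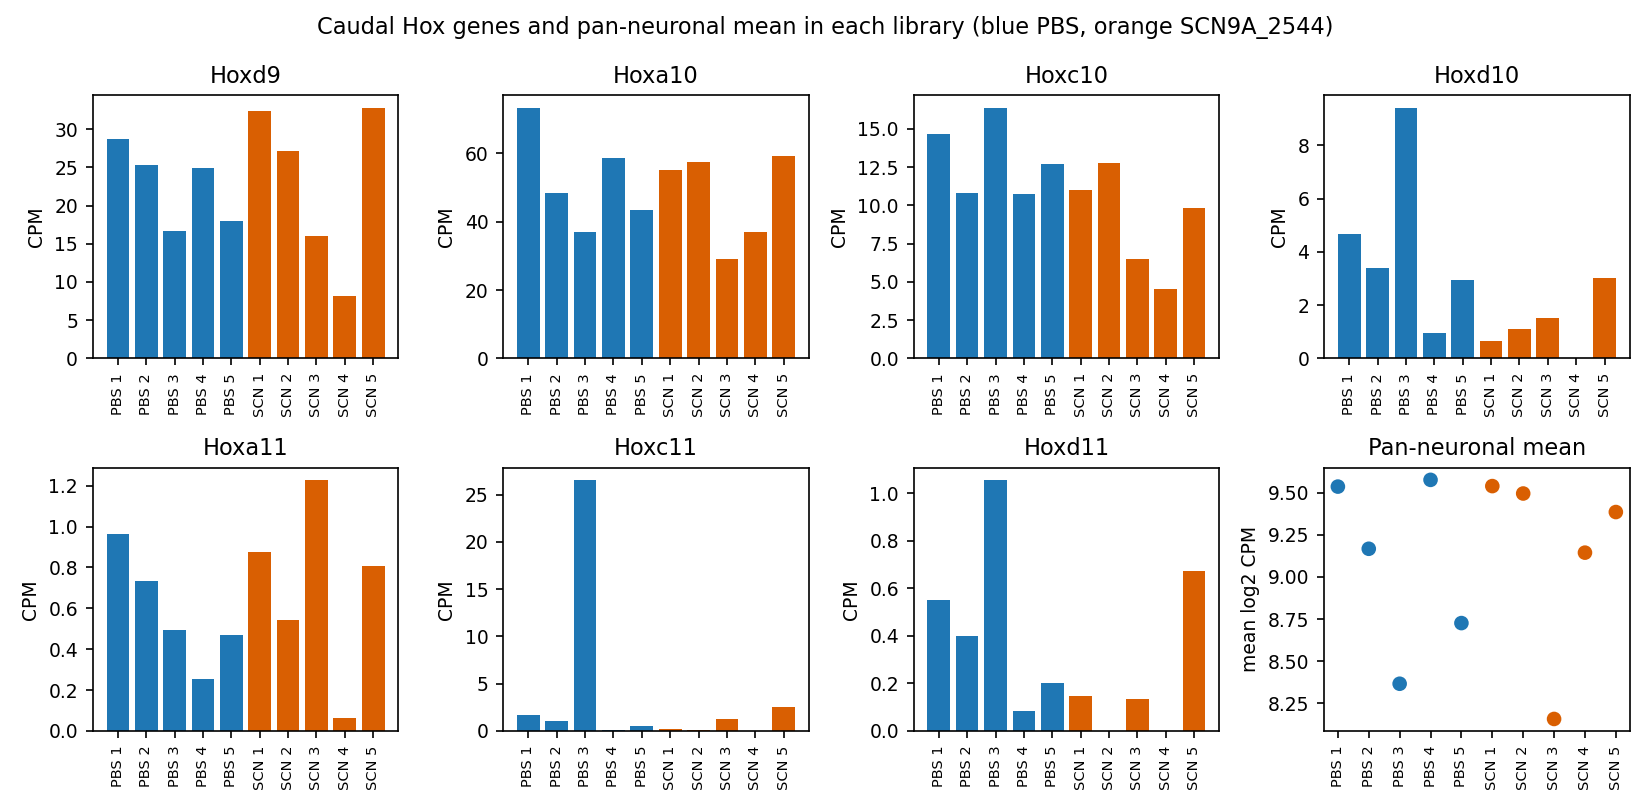
Levels of Hoxd9 and the paralog 10 and 11 genes in CPM in each library (bars, 1 per library, blue PBS and orange SCN9A_2544, the latter written SCN), with the pan-neuronal mean in log2 CPM as points. Hoxc11 stands at 26.5 CPM in PBS 3 and at 2.56 CPM or less in the other libraries, and Hoxd10 runs from 0 in SCN9A_2544 4 to 9.41 CPM in PBS 3.

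Beyond these, the terminal genes were close to absent. Hoxc12 had at most 3 counts, Hoxc13 at most 1, Hoxd13 at most 3 and Hoxd12 had 0 in every library. Hoxa13 and Hoxb13, which act in the tail, genital and hindgut region, had at most 4 counts each, and Hoxb13 stayed between 0.0630 and 0.272 CPM. No gene of paralogs 12 and 13 had more than 4 counts in any library. Across the libraries, the paralog 11 genes summed to 28.0 CPM in PBS 3, 4.04 CPM in the next library and 0.0630 CPM in SCN9A_2544 4, whereas all 39 Hox genes together summed to 274 to 422 CPM.

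PBS 3 held the highest value of Hoxc10, Hoxc11, Hoxd10 and Hoxd11 and the lowest value of many genes of paralogs 1 to 9. Hoxa10 and Hoxa11 went the other way from their paralogs. In PBS 3 Hoxa10 was at 36.9 CPM against a median of 55.2 CPM in the other 9 libraries, and Hoxa11 at 0.492 against 0.732. Of the 30 Hox genes with enough counts to test, 15 were lowest in PBS 3, all among paralogs 1 to 9, while 15.9% of all tested genes were lowest there. It held the highest value for 6 of the 30, namely Hoxc4, Hoxc5, Hoxc10, Hoxc11, Hoxd8 and Hoxd10, a share near the 17.2% of all tested genes that were highest there, and Hoxc10 exceeded its next library by only 1.12-fold. SCN9A_2544 4 held the lowest value for 7, namely Hoxa11, Hoxc5, Hoxc10, Hoxc11, Hoxd8, Hoxd9 and Hoxd10, against 4.02% of all tested genes. Of the 5 tested genes of paralogs 10 and 11, 4 were lowest in SCN9A_2544 4, compared with 3 of the 25 of paralogs 1 to 9. For Hoxc11 and Hoxa11 this rank rests on counts at or under the 3-count limit. Hoxc11 had 0 counts there against 1 in PBS 4 and 1 in SCN9A_2544 2, and Hoxa11 had 1 against 3 in PBS 4. Hoxd8 and Hoxc5 were lowest in SCN9A_2544 4 by small margins. Hoxd8 was at 15.3 CPM against 15.9 in PBS 4, and Hoxc5 at 2.58 CPM against 2.79 in SCN9A_2544 3. The library with the most highest values was SCN9A_2544 1, with 10 of the 30, against 8.61% of all tested genes.

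Other features of these libraries are given beside this. PBS 3 had a low pan-neuronal mean (8.37) and a high Schwann cell and myelin mean (10.0). SCN9A_2544 3 had a lower pan-neuronal mean (8.16) and a higher Schwann cell mean (10.2), and there Hoxc11 was at 1.23 CPM. Between these libraries, the log2 difference of PBS 3 over SCN9A_2544 3 was 4.43 for Hoxc11, 2.65 for Hoxd10 and 1.34 for Hoxc10, but -1.32 for Hoxa11. Rostral to these it was -1.83 for Hoxa6, -1.35 for Hoxb8 and -1.28 for Hoxb9, but 0.88 for Hoxc5, 0.81 for Hoxc4 and 0.61 for Hoxa2, so the difference followed neither paralog number nor cluster throughout. In SCN9A_2544 4 the pan-neuronal mean was 9.14, within the range of the others, and Slc5a7, the choline transporter of cholinergic neurons, was at 26.1 CPM against 1.57 to 5.89 elsewhere. Of the 10 genes of the spinal cord neuron list, 9 were in the data. They summed to 4.41 to 8.80 CPM in PBS and 3.47 to 28.6 CPM in treated libraries. The highest sum, in SCN9A_2544 4, was mostly Slc5a7, with Chat, Mnx1 and Pax2 at 0 there. All 10 libraries carry the same L6 label, and the part of these features in the Hox values was not tested.

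The spread of the Hox genes between libraries was above that of most genes. The standard deviation of log2 CPM over the 10 libraries had a median of 0.50 for the 30 tested Hox genes and 0.36 for all tested genes, and 20 of the 30 were above the latter. It ran from 0.21 for Hoxb4 to 2.26 for Hoxc11, which ranked 18 of 15186, with Hoxd10 (1.70) at rank 50 and Hoxb8 at 1.00. The Hox genes were also lower, with a median level of 2.75 log2 CPM against 4.37 for all tested genes, and low counts add sampling spread. The median biological coefficient of variation, which takes counting error out, was 31.4% for Hox genes and 25.8% for all. Among the 24 genes detected in every library, the highest library was a median of 2.48-fold above the lowest, with 7 genes under 2-fold and 4 over 4-fold.

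**Figure D3:**
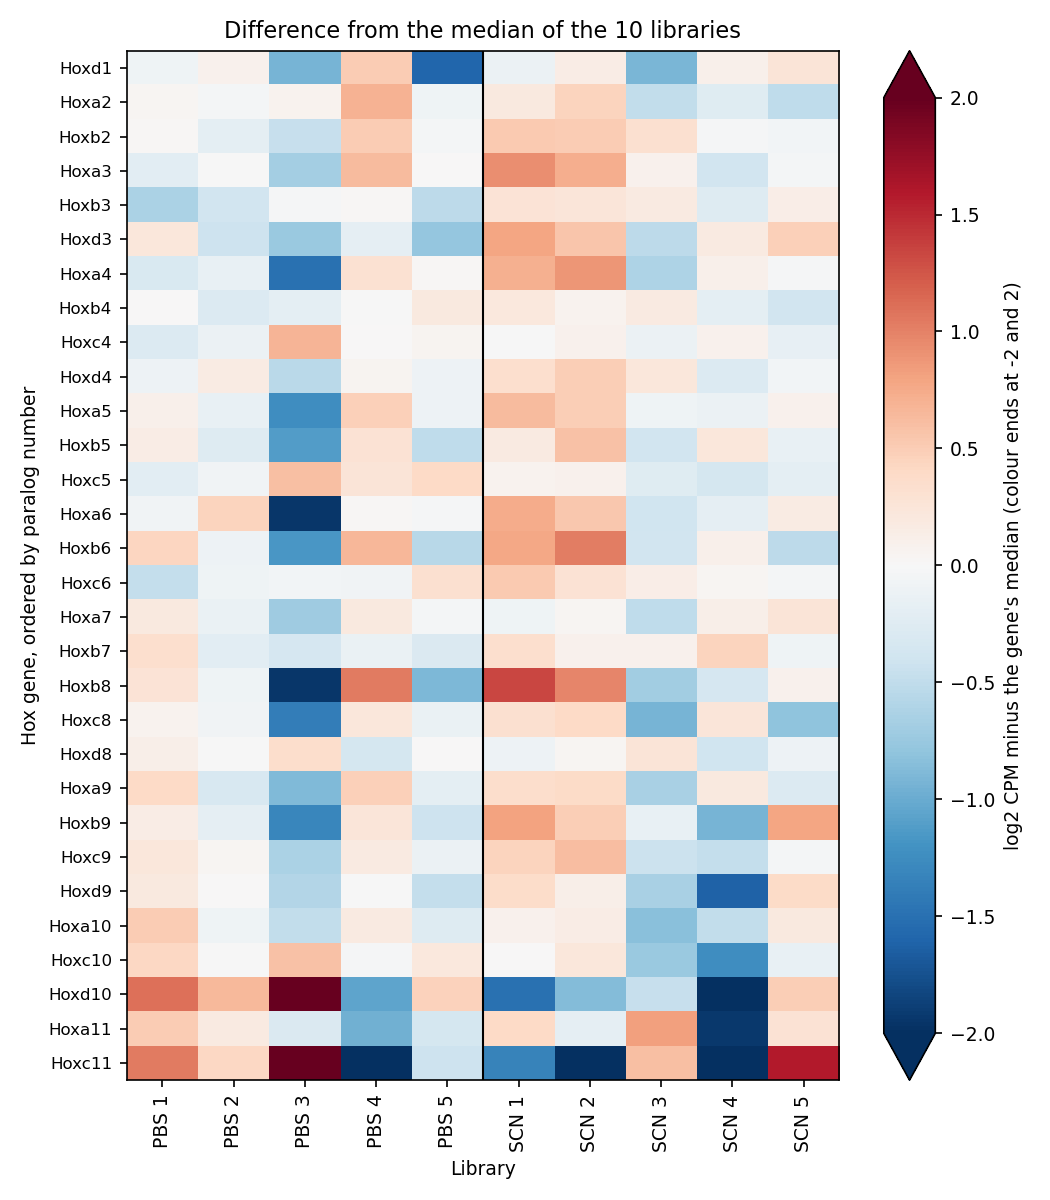
Difference of each library's log2 CPM from the gene's median over the 10 libraries, for the 30 tested Hox genes ordered by paralog number (rows) and the libraries (columns, SCN for SCN9A_2544, line between groups), with colours ending at -2 and 2. PBS 3 is blue in most rows down to paralog 9 and dark red for Hoxd10 and Hoxc11, and SCN9A_2544 4 is blue for Hoxd9, Hoxc10, Hoxd10, Hoxa11 and Hoxc11.

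Between treated and PBS libraries, no Hox gene passed the test, in a fit that did not call Scn9a. In edgeR's quasi-likelihood test, with p-values adjusted by Benjamini-Hochberg across the 15186 tested genes, 0 of the 30 tested Hox genes and 0% of all genes had an adjusted p under 0.05. DESeq2 likewise called 0 Hox genes, against 0.0791% of all. At an unadjusted p under 0.05 edgeR gave 2 Hox genes higher and 1 lower, against 4.23% of all genes in either direction, and DESeq2 gave 4 against 5.37%. No Hox gene had groups without overlap, while 0.665% of all tested genes did.

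The unadjusted p-values were smallest for Hoxb3, Hoxd3, Hoxd10, Hoxc11 and Hoxc10. Hoxb3 was at 24.2 ± 4.99 CPM (SD, n = 5) in PBS and 32.1 ± 4.37 CPM (SD, n = 5) in treated libraries, and its log2 fold change was 0.41 (SE 0.16, edgeR adjusted p = 0.964). Hoxd3 was at 3.61 ± 1.14 and 5.88 ± 1.83 CPM, with a log2 fold change of 0.70 (SE 0.29). Hoxd10 was at 4.27 ± 3.17 and 1.26 ± 1.14 CPM, with a log2 fold change of -1.77 (SE 0.76) that was -1.25 without PBS 3 and -1.44 without SCN9A_2544 4. Hoxb3, Hoxd3 and Hoxd10 shared the edgeR adjusted p of 0.964, so none passed. Hoxc11 was at 5.98 ± 11.5 and 0.814 ± 1.09 CPM, and its log2 fold change of -2.87 (SE 1.35) was -0.08 without PBS 3, while DESeq2 gave no p for this gene. Hoxc10 had a log2 fold change of -0.55 (SE 0.27). For the genes of highest mean CPM in the remaining clusters it was -0.13 (SE 0.24) for Hoxa10, 0.26 (SE 0.17) for Hoxc6 and 0.18 (SE 0.35) for Hoxd1. Of the 30 fold changes, 22 were above 0 with a median of 0.21, beside 53.4% and 0.02 for all tested genes. By paralog number, 21 of the 25 genes of paralogs 1 to 9 were above 0 and 1 of the 5 of paralogs 10 and 11. The genes of a range share the same libraries and are not replicates, and the difference between the ranges was not tested.

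The levels were next set against the level of neuronal genes in the libraries, by the slope of log2 level on the pan-neuronal mean with the treatment group as a term. With the pan-neuronal mean 13 of the 30 tested Hox genes rose and 0 fell (edgeR adjusted p under 0.05). Among all tested genes 42.6% passed, 22% rising and 20.6% falling, so the share of Hox genes that passed, 43.3%, was near the background, while the passing ones were all rising. The median slope was 0.53 for the Hox genes and -0.01 for all genes, where a slope of 1 means that the gene's log2 level changed by as much as the mean of the neuronal genes. In bulk tissue, fewer cells of a type and less RNA per cell cannot be told apart.

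The genes that rose with the pan-neuronal mean came from every cluster, with 5 of 9 tested genes in A, 4 of 8 in B, 2 of 7 in C and 2 of 6 in D. Hoxa10 had the smallest p, with a slope of 0.72 (SE 0.12, edgeR adjusted p = 0.000559). Hoxb8 had the steepest slope of those that passed, 1.66 (SE 0.31, edgeR adjusted p = 0.00121), followed by Hoxb6 at 1.05, Hoxd1 at 0.99, Hoxa4 at 0.97 and Hoxc8 at 0.90. Hoxb9, Hoxd3, Hoxa9, Hoxb5, Hoxa5, Hoxc9 and Hoxa7 passed with slopes from 0.51 for Hoxa7 to 0.88 for Hoxb9. The lowest library was SCN9A_2544 3 for Hoxa10, PBS 5 for Hoxd1 and Hoxd3, and PBS 3 for the rest of the 13 genes. These are the libraries of lowest pan-neuronal mean, so picking genes by a rising slope favours this outcome. Without PBS 3, 6 genes passed, all of them among the 13, namely Hoxa9, Hoxa10, Hoxb6, Hoxb8, Hoxd1 and Hoxd3, when 35.5% of all genes passed and 19.1% rose. With 1 term per replicate number, 0 Hox genes and 0 of all genes passed.

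Several Hox genes gave no slope that passed. Some of these slopes were as steep as ones that passed. They were 0.90 for Hoxa6 (SE 0.365, edgeR adjusted p = 0.0651), 0.67 for Hoxd9 (SE 0.27, edgeR adjusted p = 0.0630) and 0.54 for Hoxa3 (SE 0.27). Hoxb3 (-0.02), Hoxb4 (-0.05), Hoxc6 (-0.05), Hoxd4 (0.19), Hoxb7 (0.21) and Hoxc10 (0.19) had slopes near 0 with standard errors of 0.15 to 0.26. Hoxd8 had a slope of -0.28 and Hoxc4 of -0.25, both with intervals that include 0. Hoxc11 and Hoxd10 had the widest errors: the slope was -2.69 (SE 1.08, edgeR adjusted p = 0.0637) for Hoxc11, and -0.73 (SE 0.67) for Hoxd10. Without PBS 3 these slopes were -0.29 for Hoxc11 and -0.11 for Hoxd10. Of the 25 tested genes of paralogs 1 to 9, 12 rose, compared with 1 of the 5 of paralogs 10 and 11. Among all tested genes 22% rose, and the difference between the paralog ranges was not tested. It depended on PBS 3: without that library Hoxa9, Hoxb6, Hoxb8, Hoxd1 and Hoxd3 passed in the former range and Hoxa10 in the latter. In that fit 19.1% of all genes rose.

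**Figure D4:**
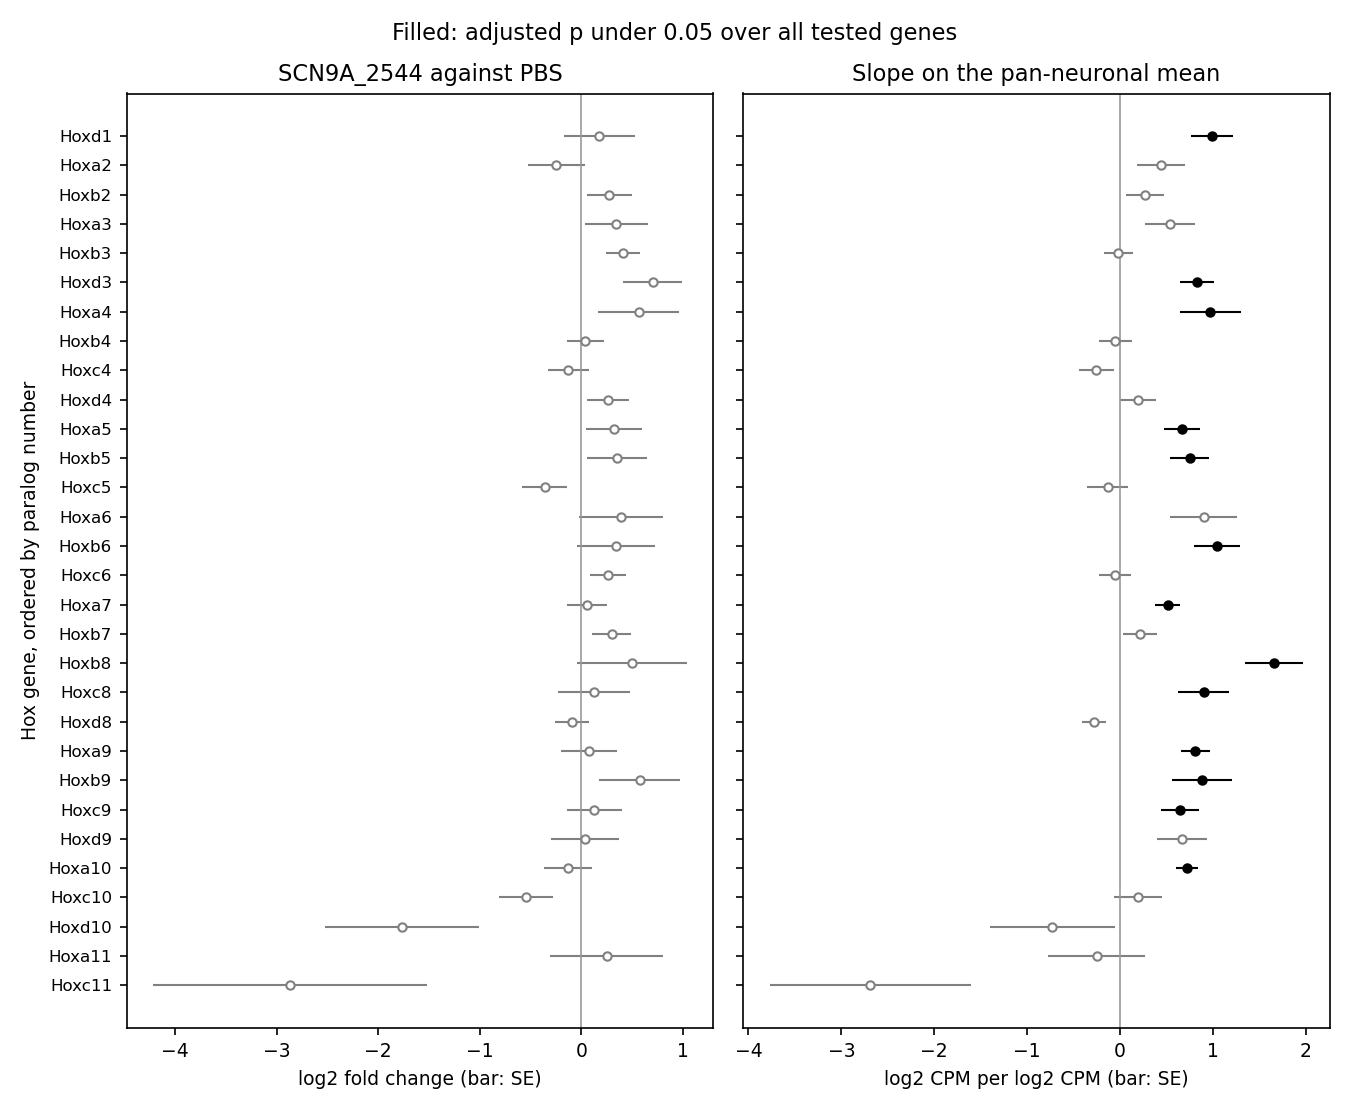
For each tested Hox gene, ordered by paralog number, the log2 fold change of SCN9A_2544 against PBS (left) and the slope of log2 level on the pan-neuronal mean (right), with bars of 1 standard error and filled points for an edgeR adjusted p under 0.05. No point is filled on the left and 13 are filled on the right, all above 0, while Hoxc11 lies at -2.69 with a wide bar.

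Other cell types moved with the neuronal mean. The Schwann cell and myelin genes fell with it in 14 of 15 cases, their summed level ranging from 15230 to 70150 CPM in PBS and from 15510 to 74740 CPM in treated libraries. The connective tissue genes fell in 7 of 14 and rose in 1, summing to 1580 to 11150 CPM in PBS and 3259 to 7145 CPM in treated libraries. Against the mean of the connective tissue genes, taken because trunk connective tissue also transcribes Hox genes, 0 of the 30 tested Hox genes passed with edgeR, where 0.619% of all genes did. At an unadjusted p under 0.05, 6 Hox genes fell and 0 rose, with 10.4% of all tested genes falling and 22.6% in either direction. Hoxa10 had the smallest p, with a slope of -0.68 (SE 0.20, edgeR adjusted p = 0.126). The parts of neurons, glia and connective tissue in the Hox levels were not tested separately.

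The partners and regulators of the Hox genes, lists chosen from textbook knowledge, gave no call between treated and PBS libraries: 0 of 9 tested cofactors, 0 of 25 tested regulators and 0 of 7 tested flanking genes passed with edgeR. With the pan-neuronal mean, 2 of the 9 cofactors rose and 1 fell, beside 22% rising and 20.6% falling among all tested genes. Meis2, a homeodomain partner of Hox proteins, had a slope of 1.22 (SE 0.16, edgeR adjusted p = 0.000103), Pknox2 of 0.35 and Pknox1 of -0.50. Of the 25 regulators, 15 fell and 1 rose, beside the same shares of all tested genes. Among those that fell were the Polycomb genes Bmi1 (-0.88) and Ezh2 (-1.04), whose products keep Hox genes silent, and the retinoic acid receptors Rarg (-0.96) and Rara (-0.94), which switch on rostral Hox genes in the embryo. Cbx6, another Polycomb member, rose with a slope of 0.35. Of the 7 tested genes that lie beside the clusters, 2 rose and 2 fell, near the 22% rising and 20.6% falling among all tested genes. Those that rose were Lnpk (0.50) and Mtx2 (0.40), next to cluster D. Calcoco1 (-0.37) beside cluster C and Skap2 (-0.58) beside cluster A fell.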

How the data were processed

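The authors deposited 1 unnormalized table of estimated counts by gene, in which each of the 10 libraries has a column. Poly(A) RNA was sequenced as paired reads of 150 bases, per the labels' protocols. The share of values that were not whole was 11.6% to 12.4% per library. The build mRatBN7.2, STAR 2.7.10a and DESeq2 1.44.0 are listed in the submitters' processing notes without a role. Not given in the sources used here are the counting program, annotation and strand setting. The design assumed raw counts, and the estimated counts were rounded instead.

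Genes were filtered with filterByExpr (minimum count 10, total 15), scaled with TMM and fitted over all 15186 tested genes with edgeR 4.0.16 in R 4.3.3, using the quasi-likelihood F-test and Benjamini-Hochberg adjustment at 0.05. The fits were treatment, slope on the pan-neuronal mean and slope on the connective tissue mean, the slopes with group as a term. DESeq2 1.42.0 was an alternative. TMM factors enter all CPM values, and a prior count of 2 was added for log2 CPM. Scripts were tested on simulated data. P-values measure the spread between samples, which may be technical in part, since the labels do not say that each sample is 1 animal. No pair of libraries agreed within sampling noise (45 pairs). Grouping followed the titles. Values of 1 member are not reported here.

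The members and lists were chosen with earlier results of these data known. Values in every library are given for the gene of highest mean CPM in each cluster, the tested genes of paralogs 9 to 13 and the gene of smallest p in each fit, and fold changes with SE for the 5 genes of smallest p and the highest of each cluster. Hoxb8, Hoxd11 and the other genes named beyond this were chosen after their values were seen. The split of paralogs 1 to 9 from paralogs 10 and 11 was not part of the design. Transcript lengths were not used here, so levels per length were not computed. RefSeq on GRCr8 was used only for names, neighbours and promoter sequences.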

Additional observations from a re-analysis of the deposited data

Results flagged for a closer look

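Within each group of 5 libraries, a library stands far from the others when its gap to the nearest, divided by the range of the group, is above 0.71 (Dixon's 95% value, log2 CPM). This was met in 4 of the 60 sets of 1 gene and 1 group, and chance gives about 1 in 20. Hoxa2 was high in PBS 4, at 3.76 CPM against 2.39 in the nearest PBS library (ratio 0.804). Hoxa6 was low in PBS 3, at 0.4215 CPM against 1.92 (ratio 0.787), and so was Hoxc8, at 2.74 CPM against 6.67 (ratio 0.774). Hoxb3 was low in SCN9A_2544 4, at 24.6 CPM against 32.2 (ratio 0.728). Hoxc11 in PBS 3 did not meet this measure, because the other PBS libraries were themselves spread from 0.0854 to 1.72 CPM.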

How the results depend on the processing

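No Hox gene was called between treated and PBS libraries under any alternative run: DESeq2 size factors, no filter, DESeq2, the replicate block, the pan-neuronal mean as a covariate, leaving out the 3 libraries of lowest pan-neuronal mean, or leaving out each library (0 to 0 calls, and 0 to 4 at an unadjusted p under 0.05). The number of Hox genes detected in every library was 25 at 0.5 CPM, 22 at 2 CPM, 27 at 3 counts or more and 24 without TMM, and 24 to 27 when each library was left out, with 27 reached without PBS 3. The replicate numbers were not taken as pairs in the main fits. Correlations of deviations between samples of the same number were 0.38, 0.005, 0.57, -0.006 and 0.05, and only numbers 1 and 3 correlated best with their own. These correlations cannot show whether samples of the same number were handled together. With the replicate block the slope on the pan-neuronal mean called 0 Hox genes and the treatment fit 0. Leaving out each library gave 6 to 14 Hox genes called for that slope, the 6 without PBS 3. For the slope on the connective tissue mean it gave 0 to 1, the 1 without SCN9A_2544 3, DESeq2 gave 1 when 1134 of all genes passed, and the endothelial mean in its place gave 6, all falling, when 4861 of all genes passed. The cause of these moves was not tested.

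Some single genes changed sign. When each library was left out, the treatment log2 fold change ran from -0.23 to 0.021 for Hoxa10, above 0 without PBS 1, and from -0.053 to 0.44 for Hoxd1, below 0 without PBS 5. For Hoxd1 it was also -0.11 when the 3 libraries with the lowest neuronal levels were left out. The slope ran from -0.13 to 0.11 for Hoxb3, above 0 without PBS 1 or PBS 3, from -0.20 to 0.048 for Hoxc6, above 0 without PBS 1 or PBS 5, and from -0.044 to 0.46 for Hoxc10, below 0 without SCN9A_2544 3. With the replicate block it was 7.02 for Hoxc11, 3.60 for Hoxd10 and 0.77 for Hoxb3. With the Schwann cell and myelin mean in place of the pan-neuronal mean, which runs the other way, it was -0.44 for Hoxa10, -0.99 for Hoxb8, -0.51 for Hoxa9, -0.53 for Hoxd3, -0.57 for Hoxd1, 1.50 for Hoxc11, 0.40 for Hoxd10, -0.13 for Hoxc10, 0.014 for Hoxb3 and 0.058 for Hoxc6. The median spread of the Hox genes was 0.51 with a prior count of 0.5, against 0.50. Levels per length and their alternative were not run. Depth limits the genes of paralogs 11 to 13, where 1 CPM is 11.7 to 15.9 counts.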

Other observations

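Rows of 6 microRNA genes that lie in the Hox clusters, Mir10a, Mir10b, Mir196a, Mir196b-2, Mir196c and Mir615, were at 0 in every library of these poly(A)-selected RNA data. The genes whose level in PBS 3 stood farthest above the next library were, after Hoxc11, Metazoa_SRP (34.9 against 9.38 CPM), Camk1g (13.63 against 4.22 CPM) and Plscr2 (22.3 against 8.08 CPM). Cartpt, which encodes a neuropeptide, stood out in SCN9A_2544 4, the library with no Hoxc11 or Hoxd10 counts, at 38.5 CPM against 5.18 CPM in the next library. At its lower end, Hoxd10 in SCN9A_2544 4 lay 2.52 in log2 CPM below the next library, the gap of rank 11 among the 15186 tested genes. These values come with no test.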
